A study of Mus musculus with 2 samples.

Results

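The replication-dependent genes of the linker histone H1 and the core histones H3 and H4 were examined for POU3F1 occupancy in mouse retina. Genes were taken where their symbol in the authors' deposited gene table starts with Hist, a digit and h1, h3 or h4, the older naming of this family. This rule found 24 of the 2323 genes in that table, out of 31 H1, H3 and H4 genes of this naming in the mouse genome. The family has 6 H1, 12 H3 and 13 H4 genes, of which 26 lie on chromosome 13, 4 on chromosome 3 and 1 on chromosome 6. All 31 were matched to a RefSeq gene by their older symbol.

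The data came from CUT&RUN, in which an antibody brings a nuclease to a chromatin protein and the DNA cut free around it is sequenced. Retinas of wild-type (WT) CD1 mouse embryos at E14 (embryonic day 14) were profiled in 1 library with an antibody to POU3F1, a transcription factor with a POU domain. They were also profiled in 1 library with rabbit IgG. Neither library had a replicate, the retinal cells were not separated by type, so a peak cannot be assigned to a cell type, and only the POU3F1 peak list and its gene table were analysed here. By its title, the study asks which genes Pou3f1 regulates in the pathway that links retina and thalamus.

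Replication-dependent histone genes are short, lack introns and are transcribed in S phase, when new chromatin needs histones. They lie in clusters, and many H2A and H2B genes are arranged as divergent pairs that share a promoter. H3 and H4 form the tetramer at the centre of the nucleosome, H2A and H2B complete it, and H1 binds the linker DNA between nucleosomes. POU-domain proteins bind the octamer, an element of H2B promoters through which POU2F1 (Oct-1) acts in S phase. H1 promoters are known for an element of their own, the H1 box, and H4 promoters for another, here called the H4 element.

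The promoters that the results turn on are given first, as the 250 bases before the RefSeq transcription start site (TSS), 5′ to 3′ in the direction of the gene, from the RefSeq promoter table of GRCm38.p6. Capitals mark the octamer (ATGCAAAT), CCAAT (the letters bound by NF-Y), TATAAA, the H1 box (AAACACA) and the H4 element (GGTCCG), on either strand. In Hist1h4c capitals also mark ATGCAAAG, which differs from the octamer in its last base. The first 5 promoters had a POU3F1 peak of their own, those of Hist1h4j and Hist1h1c had none, and the octamer-bearing H2B promoter of Hist1h2be is shown because its peak was assigned to the H4 gene Hist1h4d.
Hist1h3c (chr13:23745522-23745771, minus strand): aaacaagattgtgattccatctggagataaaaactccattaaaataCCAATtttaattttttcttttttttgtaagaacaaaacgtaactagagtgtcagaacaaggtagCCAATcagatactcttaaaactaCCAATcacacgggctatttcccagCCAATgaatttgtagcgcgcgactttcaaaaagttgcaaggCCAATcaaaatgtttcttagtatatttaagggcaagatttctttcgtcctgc
Hist1h3h (chr13:21717378-21717627, plus strand): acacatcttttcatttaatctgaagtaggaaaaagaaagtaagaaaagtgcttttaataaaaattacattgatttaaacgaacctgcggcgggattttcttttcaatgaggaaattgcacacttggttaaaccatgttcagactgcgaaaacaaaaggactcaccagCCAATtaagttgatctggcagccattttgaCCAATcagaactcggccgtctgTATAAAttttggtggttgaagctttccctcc
Hist1h3d (chr13:23575513-23575762, plus strand): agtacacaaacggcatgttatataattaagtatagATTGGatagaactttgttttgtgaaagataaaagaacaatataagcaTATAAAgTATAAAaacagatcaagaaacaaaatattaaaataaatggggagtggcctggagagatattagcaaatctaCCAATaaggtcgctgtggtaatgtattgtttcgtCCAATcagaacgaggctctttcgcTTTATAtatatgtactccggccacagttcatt
Hist1h4a (chr13:23761250-23761499, minus strand): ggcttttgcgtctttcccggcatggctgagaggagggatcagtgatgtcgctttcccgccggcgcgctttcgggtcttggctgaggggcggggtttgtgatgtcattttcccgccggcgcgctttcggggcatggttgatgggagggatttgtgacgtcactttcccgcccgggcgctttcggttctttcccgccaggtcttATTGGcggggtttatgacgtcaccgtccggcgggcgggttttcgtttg
Hist1h4c (chr13:23698459-23698708, minus strand): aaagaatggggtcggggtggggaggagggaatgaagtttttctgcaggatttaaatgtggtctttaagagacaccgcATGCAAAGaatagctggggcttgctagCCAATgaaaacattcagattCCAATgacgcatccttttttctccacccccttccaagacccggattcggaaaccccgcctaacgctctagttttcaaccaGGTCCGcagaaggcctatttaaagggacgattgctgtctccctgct
Hist1h4j (chr13:21734784-21735033, plus strand): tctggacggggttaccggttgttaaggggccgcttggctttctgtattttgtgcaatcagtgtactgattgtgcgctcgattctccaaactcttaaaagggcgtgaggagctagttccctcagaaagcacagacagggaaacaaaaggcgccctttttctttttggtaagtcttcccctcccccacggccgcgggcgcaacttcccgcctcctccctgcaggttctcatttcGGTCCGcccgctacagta
Hist1h1c (chr13:23738557-23738806, plus strand): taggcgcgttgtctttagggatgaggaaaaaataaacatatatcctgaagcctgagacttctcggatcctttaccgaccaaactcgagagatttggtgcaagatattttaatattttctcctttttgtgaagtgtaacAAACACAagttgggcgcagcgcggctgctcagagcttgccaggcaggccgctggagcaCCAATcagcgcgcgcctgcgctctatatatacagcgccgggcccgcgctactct
Hist1h2be (chr13:23585971-23586220, minus strand): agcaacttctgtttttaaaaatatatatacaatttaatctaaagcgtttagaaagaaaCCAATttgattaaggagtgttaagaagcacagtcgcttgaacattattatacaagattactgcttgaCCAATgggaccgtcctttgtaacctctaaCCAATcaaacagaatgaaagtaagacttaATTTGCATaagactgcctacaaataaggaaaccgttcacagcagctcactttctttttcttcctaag

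Own POU3F1 peaks were found at H3 and H4 genes, and none was found at an H1 gene. A peak was called a gene's own when that gene's TSS was the nearest of all RefSeq TSSs to the peak midpoint and lay within 1 kb of it. By this measure 11 of 31 genes (35.5%, 95% exact binomial interval 19.2 to 54.6%) had a peak of their own, namely 8 of 12 H3 genes, 3 of 13 H4 genes and 0 of 6 H1 genes. The intervals were 34.9 to 90.1% for H3, 5.04 to 53.8% for H4 and 0.0 to 45.9% for H1, so those of the classes overlapped. Over the protein-coding genes with a TSS in the same table, 0.914% were nearest to a peak within 1 kb. Intervals cover counting error only, and neighbouring genes of a cluster are not independent.

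The deposited assignment gave a wider count. There, 24 of the 31 genes (77.4%, interval 58.9 to 90.4%) had at least 1 peak, against 10.2% of protein-coding genes. That assignment reaches from each TSS to the domains of its neighbours, so in a dense cluster a peak at a promoter is also given to the genes around it. The 24 genes held 35 gene-peak pairs, which rested on 28 distinct peaks. Of these peaks, 12 were the own peaks of a member (9 of H3 and 3 of H4 genes), 14 had an H2A or H2B TSS nearest (5 H2A and 9 H2B), and 2 lay nearest to an H1 TSS but beyond 1 kb. In pairs, 12 were own, 15 belonged to a nearer H2A or H2B gene, 6 to another H1, H3 or H4 gene, and 2 were the distant H1 pairs. Peaks counted within 1 kb by the deposited distances gave 11 genes as well, against 0.913% of protein-coding genes.

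**Figure D1:**
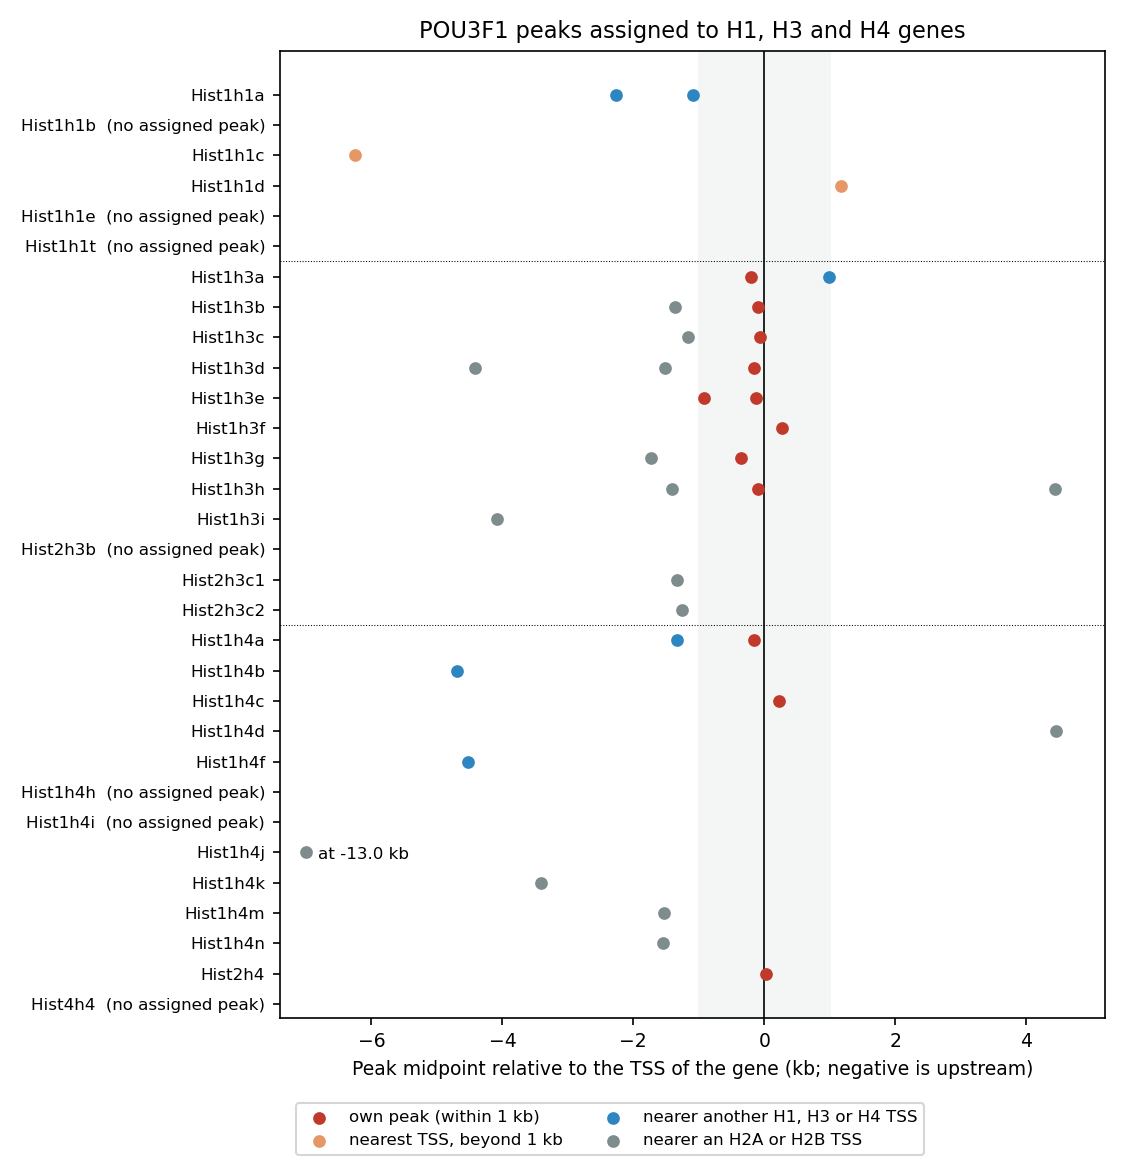
Midpoint of every assigned POU3F1 peak relative to the RefSeq TSS of each of the 31 genes, in kb along the gene; negative values are upstream, the shaded band marks 1 kb to either side, and colour shows which TSS was nearest to the peak. Own peaks (red) fall at 8 H3 and 3 H4 genes; the point of Hist1h4j is drawn at the left edge and lies at -13.0 kb.

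Among H3 genes, own peaks covered most of the chromosome 13 copies and none of those on chromosome 3. Each fold given is the authors' value, the summit's enrichment relative to background, and the pileup is the number of fragments over the summit, recovered from the deposited fold and p-value. The strongest was at Hist1h3f, 16.7-fold with a pileup of 33 (chr13:23544127-23544513). It differed from the others in place, since it lay inside the gene body with its midpoint 268 bp downstream of the TSS, and its interval did not reach the TSS. The H2B gene Hist1h2bh starts on the other strand, and that midpoint lay upstream of it, at -876 bp.

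Hist1h3c had an own peak of 8.99-fold (pileup 27) at chr13:23745486-23745681, with its midpoint upstream of the RefSeq TSS, at -63 bp. Hist1h3h had one of 8.84-fold (pileup 26) at chr13:21717378-21717686. Hist1h3d had one of 6.86-fold (pileup 27) at chr13:23575444-23575779. All 3 of these intervals covered the TSS, and their promoters are among the sequences above.

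Hist1h3a had an own peak of 6.72-fold (pileup 23) at chr13:23762450-23762717, which ended short of the TSS on its upstream side. Hist1h3b had one of 5.89-fold (pileup 17) at chr13:23752066-23752417, across the TSS. The own peak of Hist1h3g (chr13:23534945-23535180) was among the weakest, 4.48-fold with a pileup of 15, and its midpoint lay upstream, at -355 bp. It had the lowest −log10 q-value of the own peaks, 4.2.

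Hist1h3e had own peaks in a pair. The one at the promoter was 4.26-fold (chr13:23562354-23562666, midpoint at -125 bp), the lowest fold of the own peaks but with the highest pileup, 47 fragments, so the local background there was high as well. The other, 6.69-fold with a pileup of 16 (chr13:23563142-23563464), lay at -918 bp, just inside the limit of 1 kb.

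The other H3 genes had no peak of their own. The peak assigned to Hist1h3i lay upstream at -4089 bp, at the divergent pair of Hist1h2bp and Hist1h2an, and had 8.29-fold. Those of Hist2h3c1 (8.97-fold) and Hist2h3c2 (4.06-fold) lay at -1328 and -1260 bp, at the H2A genes Hist2h2aa1 and Hist2h2aa2. Hist2h3b had no assigned peak; the nearest midpoint, 1002 bp downstream of its TSS and 501 bp past its 3′ end, belonged to the H2B gene Hist2h2bb. On chromosome 3, then, the H3 genes stood beside H2A or H2B peaks without a peak of their own.

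Some H3 genes with an own peak also carried peaks of their H2A and H2B neighbours. The 17.4-fold peak of the H2B gene Hist1h2bb was assigned to Hist1h3c, where it lay at -1172 bp, and the 20.8-fold peak of Hist1h2ab to Hist1h3b. Hist1h3d was given the 23.9-fold peak between Hist1h2bf and Hist1h2ad and the 9.22-fold peak between Hist1h2bg and Hist1h2ae. Hist1h3g was given the 9.72-fold peak of Hist1h2af. In these genes the H2A or H2B peaks were stronger than the gene's own. In Hist1h3h the order in fold was the other way round, with 8.84-fold at its own promoter, against 5.0-fold at the Hist1h2bl promoter and 3.18-fold at that of Hist1h2bm. In pileup, its own peak had 26 fragments, against 22 at Hist1h2bl and 48 at Hist1h2bm.

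H4 genes had few own peaks, and the 3 found were of like strength. Hist2h4, on chromosome 3, had 7.35-fold with a pileup of 29 (chr3:96263088-96263490). Hist1h4c had 6.76-fold with a pileup of 44 in the longest own peak, 1142 bp (chr13:23697669-23698810), which ran over the whole 375 bp gene. Hist1h4a had 6.16-fold with a pileup of 40 (chr13:23761163-23761645). Each of these intervals covered its TSS, and each summit lay upstream of it, at -84 bp in Hist2h4, -79 bp in Hist1h4c and -210 bp in Hist1h4a.

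Hist1h4a and Hist1h3a lie next to each other on the minus strand, with TSSs 1137 bp apart, and each peak was assigned to both genes and to the H1 gene Hist1h1a. By nearest TSS, 1 peak was the own peak of Hist1h4a and the other that of Hist1h3a. For Hist1h3a, the peak of Hist1h4a lay at a deposited distance of 982 bp, just inside 1 kb. For Hist1h1a, that of Hist1h3a lay at -1083 bp, just outside.

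The peaks of the other H4 genes in the table belonged to neighbours. Hist1h4d was given the strongest peak of the set, 26.8-fold (chr13:23585708-23586335), but it lay 4454 bp downstream of its TSS and at -52 bp from that of Hist1h2be, whose octamer promoter is printed above. Hist1h4m and Hist1h4n were given peaks of 3.70-fold and 3.73-fold at the H2B genes Hist1h2bq and Hist1h2br, at -1538 and -1546 bp. Hist1h4k had a peak of 3.51-fold, at -3417 bp, at the pair of Hist1h2ak and Hist1h2bn. These H4 genes thus carried both the highest and some of the lowest folds without a peak at their promoters. The low folds did not go with low pileups. The peaks given to Hist1h4m, Hist1h4n and Hist1h4k had 35, 43 and 35 fragments. The median of the own peaks of H3 and H4 genes was 27.

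Hist1h4j was linked to a peak of 3.18-fold (pileup 48) at -12962 bp. Its midpoint lay 28 bp downstream of the TSS of the H2B gene Hist1h2bm, which has no row in the deposited table. Hist1h4b was given the own peak of Hist1h3b, at -4695 bp, and Hist1h4f the peak near Hist1h1d, at -4530 bp. Hist1h4h, Hist1h4i and Hist4h4 had no assigned peak. The nearest midpoint to Hist4h4, the gene on chromosome 6, was 261264 bp away.

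No H1 gene had a POU3F1 peak within 1 kb of its TSS, 0 of 6 (interval 0.0 to 45.9%). Hist1h1d came closest among the peaks nearest to an H1 TSS, with 8.13-fold and a pileup of 28 (chr13:23556064-23556332). Its midpoint lay 1166 bp downstream of the RefSeq TSS, which is 391 bp past the 3′ end of the gene. The only deposited distance of Hist1h1d was 2936 bp. It meets this peak from a start site 1770 bp from the RefSeq one. That start site is inferred, as the nearest to the RefSeq one that fits. Hist1h1c had a peak of 9.33-fold (pileup 18) upstream at -6245 bp, nearer to no other TSS in the table used (chr13:23732391-23732732).

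Of the remaining H1 genes, Hist1h1a had only the peaks of Hist1h3a and Hist1h4a, and Hist1h1b, Hist1h1e and Hist1h1t had no assigned peak. Hist1h1t encodes a linker histone of the testis. The midpoint nearest to Hist1h1e lay 1305 bp downstream of its TSS, 524 bp past its 3′ end. It belonged to a promoter of Hist1h2be and had 11.8-fold.

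**Figure D2:**
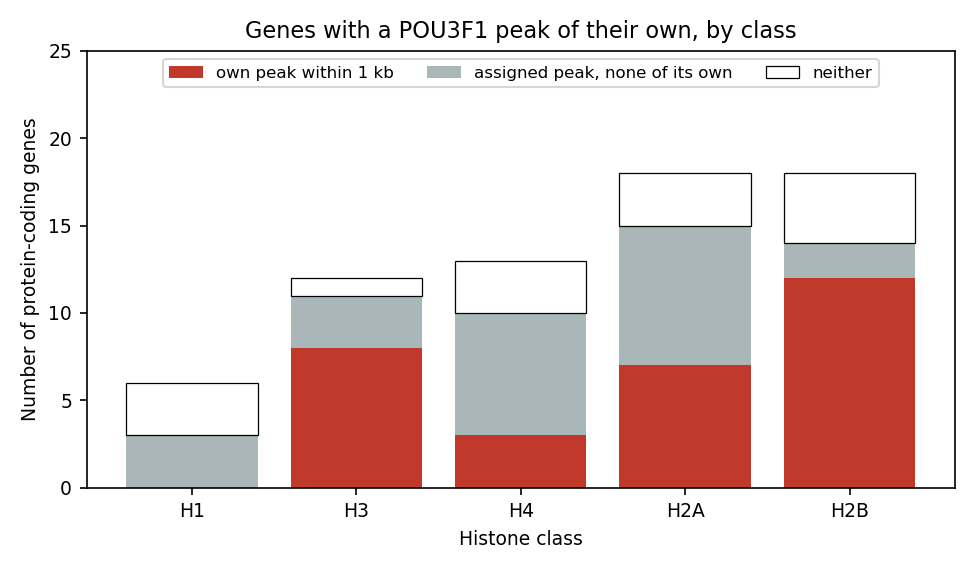
Number of protein-coding genes of each histone class with a POU3F1 peak of their own (red), with an assigned peak but none of their own (grey) and with neither (white). By the TSS nearest to the peak midpoint, H3 had 8, H4 3 and H1 0 genes with an own peak, against 7 for H2A and 12 for H2B.

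The H2A and H2B genes were set beside them. An assigned peak within 1 kb was found for 11 of 31 H1, H3 and H4 genes (35.5%) and for 28 of 36 protein-coding H2A and H2B genes (77.8%). With each peak given to its nearest TSS only, the counts were 11 of 31 (interval 19.2 to 54.6%) and 19 of 36 (52.8%, interval 35.5 to 69.6%), and these intervals overlapped. By class, the share of genes with an own peak was 66.7% for H3, 23.1% for H4 and 0.0% for H1, against 38.9% for H2A and 66.7% for H2B. By this nearest-TSS rule, taken from the midpoint, H3 had the same share as H2B, and the lower pooled share came from H4 and H1. The split between H2A and H2B depended on that choice. By the summit, the peaks of Hist1h2bg, Hist1h2bf and Hist1h2bq lay nearest to the paired H2A genes Hist1h2ae, Hist1h2ad and Hist1h2ao instead. That lowers the H2B share and raises the H2A share, while H3 kept 8 genes. Counted by an assigned peak within 1 kb, the shares were 83.3% for H2A and 72.2% for H2B. Those of H3, H4 and H1 were again 66.7%, 23.1% and 0.0%. Paired H2A and H2B genes often shared a peak. Another histone TSS lay within 1 kb of the midpoint in 2 of 12 own peaks of H3 and H4 genes (16.7%) and in 10 of 20 own peaks of H2A and H2B genes (50.0%). No test was made of these differences, since peaks were called once on 1 library and genes of a cluster share peaks.

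Own peaks of H3 and H4 genes were close in median fold to the peak list as a whole, but had a higher median pileup. Their median fold was 6.74 over 12 peaks (4.26 to 16.7), against 9.02 over 20 own peaks of H2A and H2B genes (3.18 to 26.8) and 6.37 over all 2652 peaks. The median was 6.72 for H3 and 6.76 for H4. The median pileup was 27 fragments (15 to 47) at H3 and H4 genes, against 45.5 (22 to 193) at H2A and H2B genes and 19 over the 2588 peaks for which it was recovered. In fold, 8 of the 12 own peaks stood above the median of all peaks, and they spanned the percentiles from 13.3 to 93.4. In fold, the range of the H3 and H4 peaks lay inside that of the H2A and H2B peaks. In pileup, the ranges overlapped from 22 to 47 fragments, which is most of the H3 and H4 range.

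**Figure D3:**
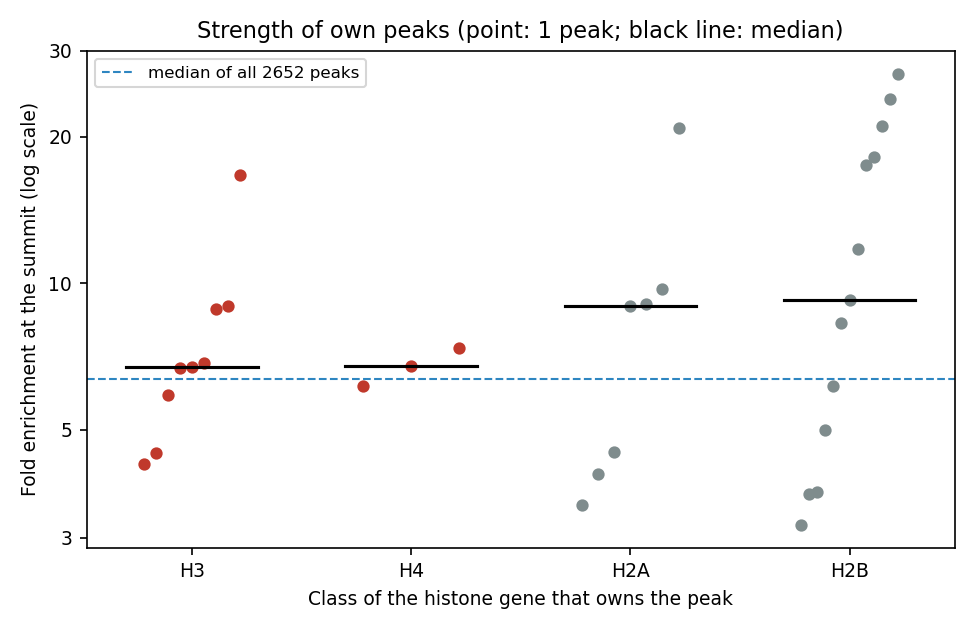
Fold enrichment at the summit of each own peak, on a log scale, by class of the histone gene that owns it; black lines are medians and the dashed line is the median of all 2652 peaks, 6.37. The H3 and H4 peaks lie between 4.26-fold and 16.7-fold, inside the range of 3.18-fold to 26.8-fold of the H2A and H2B peaks.

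Own peaks sat on the promoter side of the genes. The midpoint was upstream of the RefSeq TSS in 9 of 12 own peaks and the summit in 11 of 12, all except that of Hist1h3f, and the median midpoint lay at -114 bp (from -918 to 268 bp). The interval covered the TSS in 8 of 12. Those that did not were the peaks of Hist1h3a, Hist1h3f and Hist1h3g and the more distant peak of Hist1h3e. The median length was 329.5 bp, against 352 bp over all peaks.

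**Figure D4:**
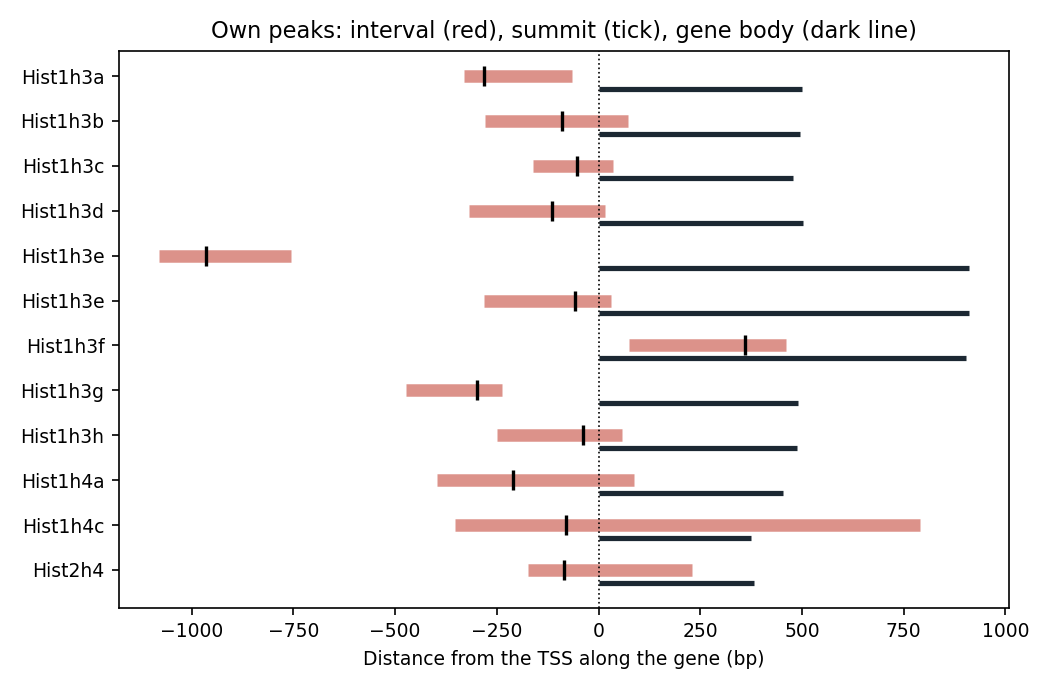
The 12 own peaks drawn along their genes, in bp from the RefSeq TSS; the red bar is the peak interval, the black tick the summit and the dark line the gene body. Summits lie upstream of the TSS in all but Hist1h3f, and the peak of Hist1h4c spans the gene.

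The letters of the promoters differed between the classes. Each element was searched on both strands of the RefSeq window from 250 bases before to 50 after the TSS, which was found for 28 of the 31 genes (6 H1, 10 H3 and 12 H4) and left out Hist1h3a, Hist1h3f and Hist2h4. The octamer ATGCAAAT or its reverse ATTTGCAT was in 0 of 28 windows of H1, H3 and H4 genes, against 14 of 35 windows of H2A and H2B genes (40.0%) and 1.74% of all 32851 promoter windows. With 1 mismatch allowed, 2 of 28 held it (7.14%), against 30 of 35 (85.7%) and 18.6% of all windows. The 2 were Hist1h4c, at position -173, and Hist1h1e, at position -215. In Hist1h4c the letters ATGCAAAG lay inside the own peak, with their first base 94 bp from the summit. Windows of divergent H2A and H2B pairs overlap, so both pooled H2A and H2B counts hold some sites more than once. For the exact octamer this was so in Hist1h2ah and Hist1h2bk, in Hist1h2ae and Hist1h2bg, and in Hist1h2aa and Hist1h2ba. Hist1h2be also entered with more than 1 window.

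**Figure D5:**
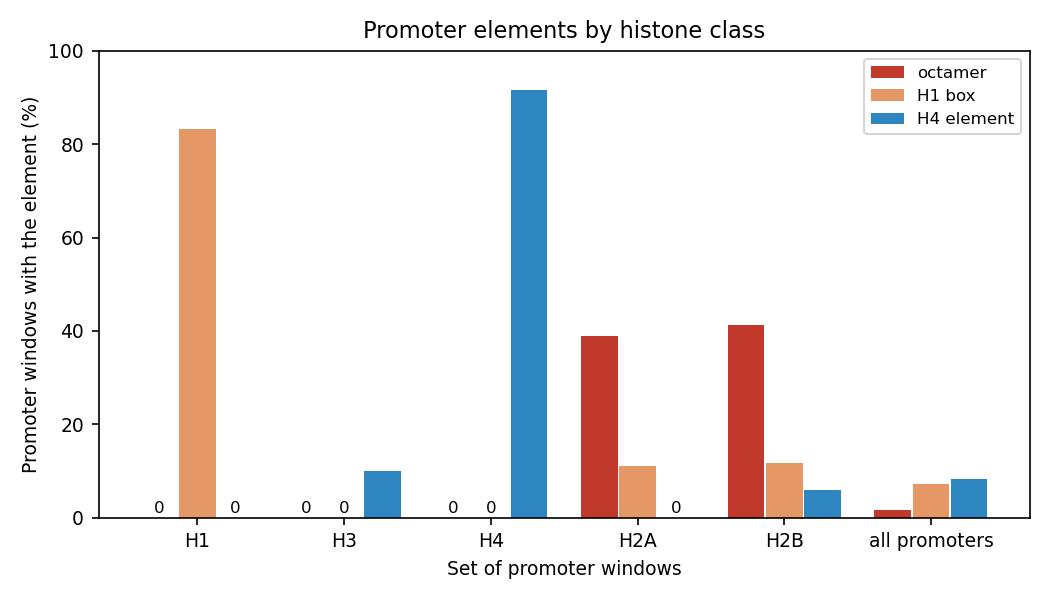
Percentage of promoter windows that hold the octamer, the H1 box and the H4 element, exact letters on either strand, by histone class and over all promoter windows. The octamer is in 0 H1, H3 and H4 windows, against 38.9% of H2A and 41.2% of H2B windows and 1.74% of all windows.

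CCAAT or its reverse ATTGG was in 6 of 6 H1 and 10 of 10 H3 windows but in 3 of 12 H4 windows, against 35 of 35 H2A and H2B windows and 37.4% of all windows. Hist1h3c held it 5 times, the most of the 28. The H4 windows with it were Hist1h4a and Hist1h4c, which had own peaks, and Hist1h4d, which had none. None of the H4 windows without it had an own peak. The other H4 gene with an own peak, Hist2h4, had no window and was not searched. The H3 and H1 windows without an own peak held CCAAT too, so its letters were also present where no own peak was called.

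In 7 own peaks the summit fell inside a window that held CCAAT. The nearest first base of CCAAT was then 1 bp from the summit in Hist1h3c, 2 bp in Hist1h3b, 5 bp in Hist1h3e, 15 bp in Hist1h3h and 24 bp in Hist1h3d. It was 47 bp in Hist1h4c and 162 bp in Hist1h4a. The H3 windows hold these short letters several times, so a small distance is a description of place only.

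The H1 box and the H4 element were found mainly in the class each is named for. AAACACA or its reverse TGTGTTT was in 5 of 6 H1 windows, all except Hist1h1a, at positions -122 to -112, and in 0 H3 and 0 H4 windows, against 4 of 35 H2A and H2B windows and 7.18% of all windows. GGTCCG or its reverse CGGACC was in 11 of 12 H4 windows, 8 of them between positions -50 and -30, and in 1 H3 window, that of Hist1h3i, against 1 of 35 H2A and H2B windows and 8.25% of all windows. The H4 gene whose window lacked it, Hist1h4a, was one of those with an own peak. TATAAA or its reverse TTTATA was in 4 of 6 H1, 4 of 10 H3 and 8 of 12 H4 windows, against 13.6% of all windows. No match in a window says only that these letters are not in it.

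Some copies are so alike that reads may not tell them apart. The labels give paired reads of 50 cycles, so 50-base stretches were compared between promoter windows. Hist1h4m and Hist1h4n shared 94.0% of theirs, Hist2h3c1 and Hist2h3c2 74.1%, and Hist1h4j and Hist1h4k 11.6%. No other window of an H1, H3 or H4 gene shared one with another promoter. Hist1h3a, Hist1h3f and Hist2h4, which had own peaks, had no window and were not compared. Sequence more than 50 bases past the TSS was not compared either. The comparison thus does not cover the peak in the gene body of Hist1h3f, or the whole of that of Hist1h4c. The H2B windows of Hist1h2bq and Hist1h2br, whose peaks were assigned to Hist1h4m and Hist1h4n, were shared in full. Those of the H2A genes Hist2h2aa1 and Hist2h2aa2, whose peaks were assigned to Hist2h3c1 and Hist2h3c2, were shared over 67.7%. How reads that match several copies were placed is not given in the sources used here, so peaks at these copies, and missing ones, are uncertain.

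Other genes of histone supply are a small set, and their share with a peak was not tested against that of protein-coding genes. Of 38 genes for transcription factors of histone genes, histone mRNA processing, chaperones and replication-independent H1 and H3 histones, 1 had an assigned peak (2.63%), against 10.2% of protein-coding genes. This was Pou2f1, the gene of Oct-1, with 5 peaks. The peak at its promoter was 8.82-fold with a pileup of 38 (chr1:166002218-166002884, 127 bp downstream of the TSS), and the strongest, 14.7-fold, lay 35839 bp downstream. Npat, whose product activates histone gene transcription in S phase, Slbp, which encodes the protein that binds the stem-loop of histone mRNAs, and H3f3a and H3f3b, which encode the replication-independent H3.3, had none.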

How the data were processed

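POU3F1 peaks of 1 CUT&RUN library were analysed. Per the submitters' processing notes, the build was mm10 and the tools were Bowtie2, MACS2 and deepTools, with no version. Use of the IgG library as peak-calling control is not given in the sources used here. Per peak, the deposited list has a fold enrichment at the summit (a ratio), the −log10 of its p-value and q-value, and a score derived from the q-value. These values are the authors', deposited for 2652 peaks called once, and only describe and rank peaks within this list. Per the file headers, the deposited gene table was made with GREAT 4.0.4 on mm10, where basal domains reach 5000 bp up and 1000 bp down from each TSS and extend by at most 1000000 bp.

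Deposited distances were tied to peaks through the start site from which every distance of a gene met a peak midpoint. Where several start sites fitted, the one nearest to the RefSeq TSS was taken. With only 1 distance, a start site is not checked by another. For 17 of 24 genes the start site lay within 30 bp of the RefSeq one. Positions are mm10 (GRCm38.p6), counted from 1, with TSSs and sequences from RefSeq tables; TSSs of 3 members without a promoter window came from the gene's end. Library depth is unknown. Summit pileups were taken as the whole number that gives the deposited −log10 of the p-value within 0.001 under a Poisson model. This succeeded for 97.6% of peaks, and on 1000 simulated peaks drawn from this list it found 99.9%. Intervals are exact binomial (95%). With 1 library and no replicates, no test was made. Python 3.11.15, pandas 2.3.3 and scipy 1.17.1 were used.

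All members with a row were named, with the H2A or H2B gene nearest to each of their peaks, the family genes without one, and the listed genes of histone supply with a peak; Npat, Slbp, H3f3a and H3f3b were named besides, after their values were seen. The members and lists were chosen with earlier results of these data known; the H1 box and H4 element searches were added after seeing the data.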

Additional observations from a re-analysis of the deposited data

How the results depend on the processing

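Counts and the median were recomputed under 30 alternatives, of which 28 left a count within 1.5 times, or the median fold as it was. The number of H3 genes with an own peak was 5 where the interval had to cover the TSS; the total was then 8, without Hist1h3a, Hist1h3f and Hist1h3g. Allowing 1 mismatch in the octamer gave 2 windows. Peaks with a q-value under 0.01 or 0.001, a window of 500 bp, the TSS nearest to the summit, and start sites placed from the deposited distances (an alternative added after seeing the data) each gave 11 genes with an own peak. Within 5 kb of the TSS, 22 genes had an assigned peak. No paired analysis was possible because each antibody had 1 library. Summit pileups of 15 to 47 fragments limit the precision of single own peaks.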
